A study of Mus musculus with 6 samples.

Results

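The ABCC transporters are ATP-driven pumps of the C subfamily of ATP-binding cassette proteins. Their liver transcripts were followed in 3 mice with a conditional knockout of Keap1 and in 3 controls. The 8 genes were Abcc1, Abcc2, Abcc3, Abcc4, Abcc5, Abcc6, Abcc10 and Abcc12. They were chosen by name, with earlier results of these data known. Each probe set whose only gene symbol in the platform annotation was 1 of these was taken. This gave 20 of 45037 probe sets and 8 of 18193 genes. A probe set is a group of short oligonucleotides that report 1 transcript or part of it. All 6 mice were male, aged 9 weeks, and had received only the vehicle of 10% DMSO, 10% Cremophor-EL and 80% PBS. The knockouts carried Alb-Cre with Keap1(flox/-), and the controls Alb-Cre with Keap1(flox/+). Cre under the albumin promoter acts chiefly in hepatocytes, so both groups can lose the floxed allele there, and the controls then keep 1 functional copy. The knockouts also carry a null allele, which is present in every cell type. Each array held the liver RNA of 1 mouse.

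Members of this family carry organic anions out of cells, many of them as conjugates with glutathione, glucuronate or sulfate. In hepatocytes Abcc2 sits in the canalicular membrane and empties into bile, whereas Abcc1, Abcc3, Abcc4, Abcc5 and Abcc6 belong to the sinusoidal or basolateral side and empty toward blood. Several members are known targets of NRF2, the transcription factor encoded by Nfe2l2, which the KEAP1 ubiquitin ligase adaptor marks for degradation. NRF2 binds antioxidant response elements with a small Maf protein. The core of this element was written as TGACNNNGC and searched on both strands of the 250 bases before each annotated start in RefSeq (GRCm38.p6).

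Of the members, 5 had such a window, 7 windows in all, and 4 windows held a match, against 10.2% of the 32851 windows of all genes. The matches were in Abcc2, Abcc10 and both windows of Abcc4, and the other window of Abcc10 held none. By gene, 11.5% of all 27025 with a window held a match. Abcc1, Abcc3 and Abcc6 had no window in the sequences used and were not searched. The windows with a match are shown because Abcc2 and Abcc4 rose while Abcc10, which also held a match, did not pass the test. The match is in capitals, read on the strand of the gene.
Abcc2, chr19:43782058-43782307, + strand: cactgggaTGACATAGCattcatct
Abcc4, upstream start, chr14:118706220-118706469, - strand: cccgagagGCGGGGTCAgggcgggc
Abcc4, downstream start, chr14:118676932-118677181, - strand: taatctcgTGACTCTGCcgtggtgg
Abcc10, chr17:46328024-46328273, - strand: cagcacccTGACCTGGCagcgcgtc

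In Abcc2 the match begins 98 bases before the start, at the upstream start of Abcc4 25 bases before it, and at the downstream start of Abcc4 23 bases before it. At the upstream start of Abcc4 it lies on the opposite strand, where it reads TGACCCCGC. In Abcc10 it begins 203 bases before the start. The windows of Abcc5 and Abcc12 held no match, which says only that these letters are not in those windows. A match is a description of the sequence and not a measured binding site. The whole windows of the exporters that rose and held a match are as follows.
Abcc2, 250 bases before the start: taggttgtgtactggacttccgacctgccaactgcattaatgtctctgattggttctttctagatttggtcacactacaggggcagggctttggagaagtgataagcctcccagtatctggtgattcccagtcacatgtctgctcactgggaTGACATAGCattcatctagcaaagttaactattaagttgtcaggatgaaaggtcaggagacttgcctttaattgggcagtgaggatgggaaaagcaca
Abcc4, 250 bases before the upstream start: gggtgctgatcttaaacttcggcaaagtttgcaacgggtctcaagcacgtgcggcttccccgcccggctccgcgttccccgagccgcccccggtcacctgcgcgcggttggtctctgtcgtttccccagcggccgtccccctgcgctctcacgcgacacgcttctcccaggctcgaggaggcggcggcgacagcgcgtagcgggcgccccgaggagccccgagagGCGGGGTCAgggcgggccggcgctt
Abcc4, 250 bases before the downstream start: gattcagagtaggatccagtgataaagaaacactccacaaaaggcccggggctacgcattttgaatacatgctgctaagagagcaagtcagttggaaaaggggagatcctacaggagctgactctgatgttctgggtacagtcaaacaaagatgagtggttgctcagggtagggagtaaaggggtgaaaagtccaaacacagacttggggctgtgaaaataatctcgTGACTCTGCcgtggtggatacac

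The deposited values are linear array signals in arbitrary units, scaled by the authors so that every array has the same trimmed mean. Keap1 itself, in its brightest probe set, had signals of 326, 151 and 214 in knockouts 3, 4 and 5 and 786, 843 and 700 in controls 1, 2 and 3, a log2 difference of -1.74 (limma adjusted p = 0.0102). Averaged over the tested Keap1 probe sets the log2 difference was smaller, at -1.23 (limma adjusted p = 0.0110). Across probe sets, which are not independent replicates, correlations between arrays on the log2 scale were 0.965 to 0.972 within groups and 0.954 to 0.959 between them. Control 2 stood apart in some markers of bile duct cells and of other cells. Its Krt19 signal was 502, while the other 5 arrays lay between 8.3 and 88.5, and its Muc1 signal was 745, while the others lay between 6.2 and 10.6. Of the same list, Epcam and Sox9 were highest in control 3, at 478 and 144 against 425 and 140.3 in control 2. Control 2 was also the highest array for the smooth muscle actin gene Acta2, at 2142 against 640 and 779 in the other controls. Over the 6 measured bile duct markers 0 passed, and their summed signal ranged from 362 to 577 in the knockouts and from 453 to 2210 in the controls. Their median log2 difference was -0.84, and 0 of the 6 had a higher log2 mean in the knockouts. Cldn4 of this list read 63.6 to 100.9 in the knockouts and 152.5 to 176.9 in the controls. It did not overlap and did not pass (limma adjusted p = 0.115). Results that change without control 2 are given beside the result. In whole liver RNA, a change in the number of cells of a type and a change in RNA per cell cannot be told apart.

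Transcripts of the ABCC exporters were higher in the knockout livers in 5 of the 8 genes, Abcc4, Abcc5, Abcc12, Abcc2 and Abcc3, and lower in 0. The rise was very unequal, from 20.7-fold for Abcc4 to 1.64-fold for Abcc3. The remaining genes, Abcc1, Abcc6 and Abcc10, did not pass the test. Only 3 genes, Abcc4, Abcc5 and Abcc12, were called without knockout 5, control 2 or control 3, after median centring, after hybridisation control scaling and with no variance trend. With each gene counted by the probe set brightest in the controls alone, a choice added after the data were seen, 4 were called, since Abcc5 was then not. Fold differences are on the scale of log2(signal + 16), which understates those of dim probe sets. A gene was called by its brightest tested probe set with limma, after Benjamini-Hochberg adjustment over all probe sets tested. By that rule 0.982% of 13036 genes were called higher and 0.89% lower. The 8 genes were chosen with earlier results of these data known, so the excess over these shares is not independent support. Counted by probe set, 8 of the 14 tested were higher and 0 lower, against 0.814% higher and 0.722% lower of all 27022. Abcc5 alone gave 5 of the 14 and 4 of the 8, read in the same mice, so these are not separate features. The test took probe sets with a mean signal over the 6 arrays of at least 84.2, the 40th percentile. In 2 of the 8, 1 of Abcc5 and 1 of Abcc12, the control mean lay under that value, so they entered the test only through the knockouts. With no filter all 20 were tested and 8 were higher, and 0 lower, against 0.318% and 0.284% of 45037. In 9 of the 14 every knockout lay above every control, as in 9.1% of all probe sets tested, and in 0 every knockout lay below, as in 11.4%.

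**Figure D1:**
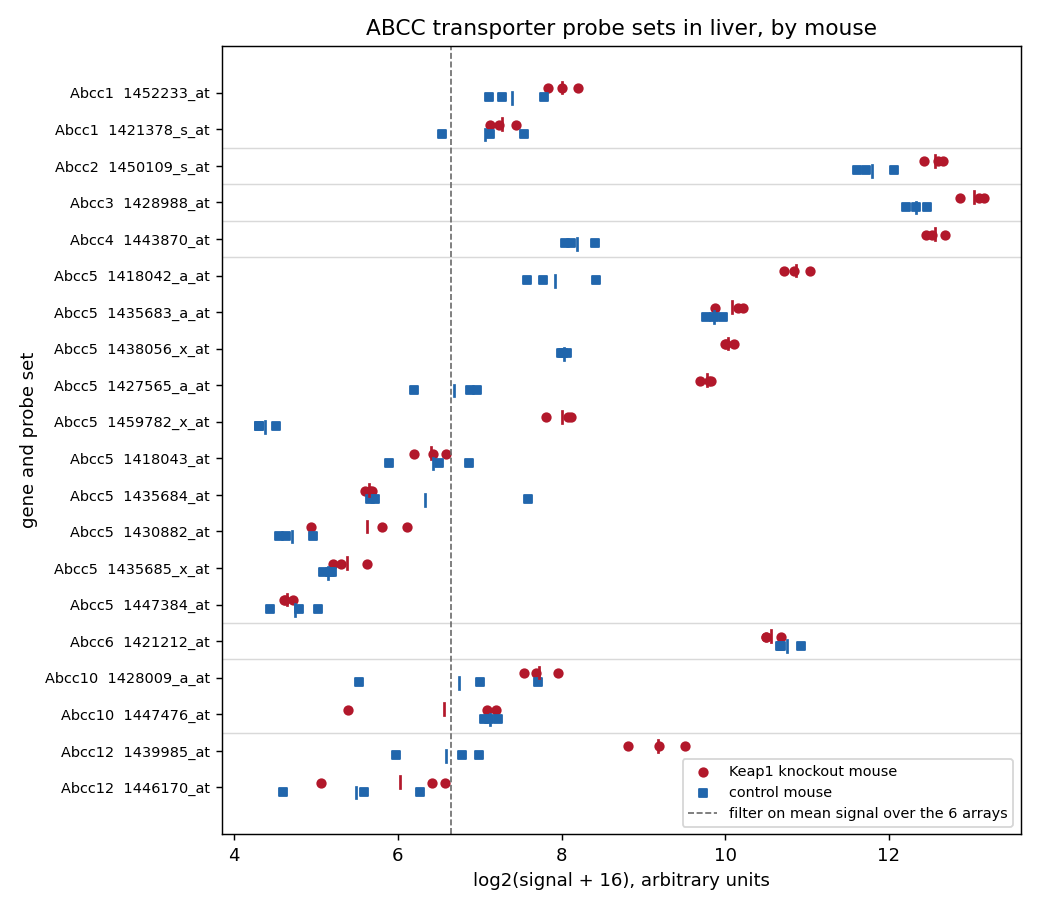
Each point is 1 mouse, and the horizontal axis gives log2(signal + 16) for all 20 probe sets of the 8 ABCC genes. Short vertical bars are group means and the dashed line is the filter at a mean signal of 84.2. Knockout and control mice are separated by the widest gap in Abcc4, and 4 Abcc5 probe sets and 1 of Abcc12 are also far apart, while Abcc6 and 1435683_a_at of Abcc5 overlap.

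Among the sinusoidal exporters, Abcc4 changed most. It moves cyclic nucleotides, conjugated steroids and, together with glutathione, bile acids across the basolateral membrane. Its 1 probe set had signals of 5598, 6581 and 5907 in knockouts 3, 4 and 5, and of 262, 325 and 247 in controls 1, 2 and 3. The lowest knockout was far above the highest control, and within each group the mice lay close together, with log2 ranges of 0.23 and 0.37. The log2 difference was 4.37 with a standard error of 0.13 and a 95% interval from 4.07 to 4.66 (limma adjusted p = 2.03e-06). By size it ranked 5 of the 27022 probe sets tested.

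Abcc5, an exporter of cyclic nucleotides and nucleotide analogues, was represented by 10 probe sets that did not move alike. The brightest over all 6 arrays, 1418042_a_at, had signals of 2081, 1671 and 1825 in the knockouts and of 175, 328 and 202 in the controls. It rose 7.69-fold (log2 difference 2.94, standard error 0.21, limma adjusted p = 0.000293). The lowest knockout lay far above the highest control, which was control 2. It is the brightest through the knockouts only: in the controls 1435683_a_at had the highest mean signal of the Abcc5 probe sets, and the gene's call depends on this choice. In 1427565_a_at the knockouts read 891, 880.2 and 813 and the controls 57.2, 102 and 109, an 8.55-fold rise. In 1438056_x_at the knockouts read 1088, 1016 and 1004 and the controls 239, 253 and 244, a 4.03-fold rise. The mice of a group were nearly equal in this probe set. The fourth to rise, 1459782_x_at, read 256, 208 and 261 in the knockouts and 3.7, 3.8 and 6.8 in the controls. These control values lie under the added 16, so its 12.4-fold size depends on that offset, with log2 differences of 5.43 at an offset of 1 and 2.15 at an offset of 64.

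The probe set 1435683_a_at was well above the filter but did not pass. Its signals were 1121, 1170 and 926 in the knockouts and 917, 855 and 991 in the controls, and the groups overlapped. The log2 difference was 0.21, with a 95% interval from -0.08 to 0.50 (limma adjusted p = 0.491). Taken within each array, the log2 ratio of 1418042_a_at to 1435683_a_at was higher in the knockouts by 2.73. That of 1427565_a_at was higher by 2.88 and that of 1438056_x_at by 1.80. For each of the 3 ratios every knockout lay above every control, and the exact two-sided permutation p was 0.1, the smallest that 3 mice against 3 can give. These ratios were chosen after the values were seen. In the probe table, 1435683_a_at shares its source sequence record with 1435684_at and 1435685_x_at, while 3 other Abcc5 probe sets have no record listed. The probe sets 1435684_at and 1435685_x_at were too dim to be tested, at means of 58.6 and 22.7, with log2 differences of -0.68 and 0.23. The difference of -0.68 rests on control 2, at 178 against 34.7 to 36.9 in the other controls, and was -0.05 without it. The other dim Abcc5 probe sets, 1418043_at, 1430882_at and 1447384_at, differed by -0.02, 0.91 and -0.10, and in each the groups overlapped. Where along the transcript each probe set lies was not analysed here, and the names ending in _x_at mark sets whose probes may also bind other transcripts.

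**Figure D2:**
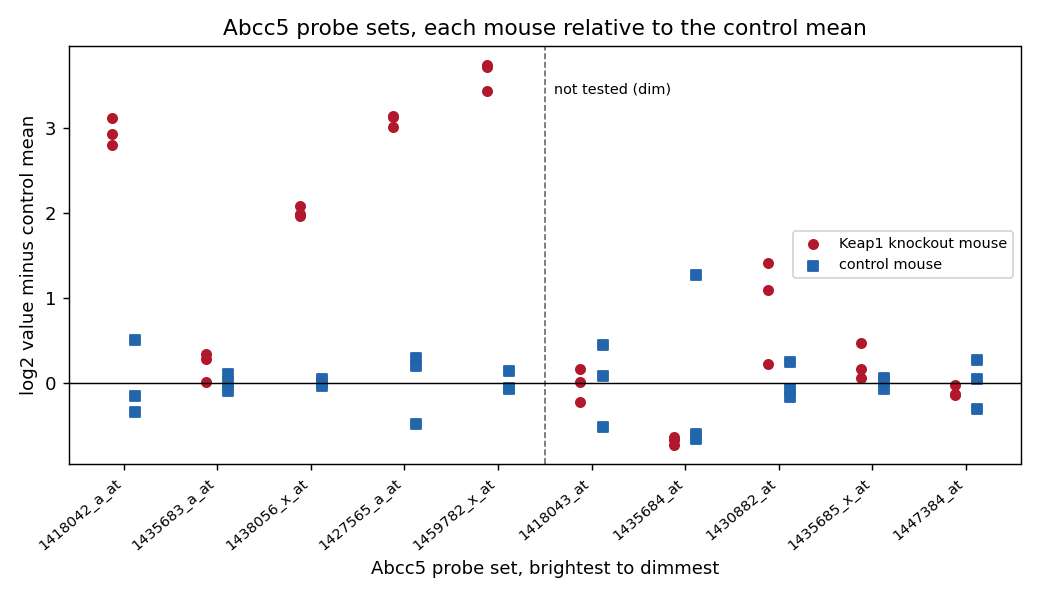
Each point is 1 mouse, with its log2(signal + 16) minus the mean of the 3 controls, for the 10 Abcc5 probe sets ordered by mean signal, the tested ones left of the dashed line. In 4 of the 5 tested probe sets all knockouts lie above all controls, and in 1435683_a_at the knockouts lie among the controls or just above them, with a mean difference of 0.21.

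Abcc3, which returns glucuronide conjugates and bile acids to the blood, was higher by a modest amount. Its signals were 7471, 9173 and 8759 in the knockouts and 5634, 5148 and 4713 in the controls. The groups did not overlap, and the lowest knockout was knockout 3. The difference was 1.64-fold, or 0.71 on the log2 scale with a standard error of 0.11 and a 95% interval from 0.46 to 0.96 (limma adjusted p = 0.0188). The call was lost without knockout 4 (adjusted p = 0.0585), knockout 5 (0.0585), control 2 (0.0691) or control 3 (0.0609), and also after median centring (0.0595), after hybridisation control scaling (0.0812) and with no variance trend (0.119), while the log2 difference stayed between 0.54 and 0.80 over all settings.

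Abcc1, the founding multidrug resistance protein and an exporter of glutathione conjugates such as leukotriene C4, did not pass. Its brighter probe set read 277, 212 and 241 in the knockouts and 139, 205 and 123 in the controls. All knockouts lay above all controls, though control 2 came close, and the log2 difference of 0.62 had a 95% interval from 0.11 to 1.12 before adjustment (limma adjusted p = 0.247). Without control 2 it was 0.82 (adjusted p = 0.183). Its other probe set, which can match more than 1 transcript, differed by 0.20 with overlapping groups and an interval from -0.45 to 0.85.

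Abcc6 is a basolateral protein of hepatocytes needed for ATP release and is mutated in the calcification disorder pseudoxanthoma elasticum. It was the only gene of the 8 whose brightest probe set lay below the controls. Its signals were 1428, 1622.5 and 1430 in the knockouts and 1932, 1630 and 1614.5 in the controls. The groups overlapped through knockout 4, and the log2 difference of -0.20 had a 95% interval from -0.47 to 0.06 (limma adjusted p = 0.462). That interval leaves out any rise of the size seen for Abcc3.

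The canalicular exporter Abcc2 carries bilirubin glucuronides and glutathione conjugates into bile. Its 1 probe set, which by its name can match more than 1 transcript, read 6472, 5516 and 6207 in the knockouts and 4250, 3352 and 3120 in the controls. Knockout 4 was the lowest of its group and control 1 the highest of its own, without overlap. The rise was 1.71-fold, or 0.77 on the log2 scale with a standard error of 0.13 and a 95% interval from 0.48 to 1.06 (limma adjusted p = 0.0249). Like that of Abcc3, the call was lost in some runs: without knockout 3 (adjusted p = 0.113), knockout 5 (0.0722), control 2 (0.0943) or control 3 (0.0751), after median centring (0.0539), after hybridisation control scaling (0.0570) and with no variance trend (0.130). The log2 difference lay between 0.60 and 0.90 over all settings.

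**Figure D3:**
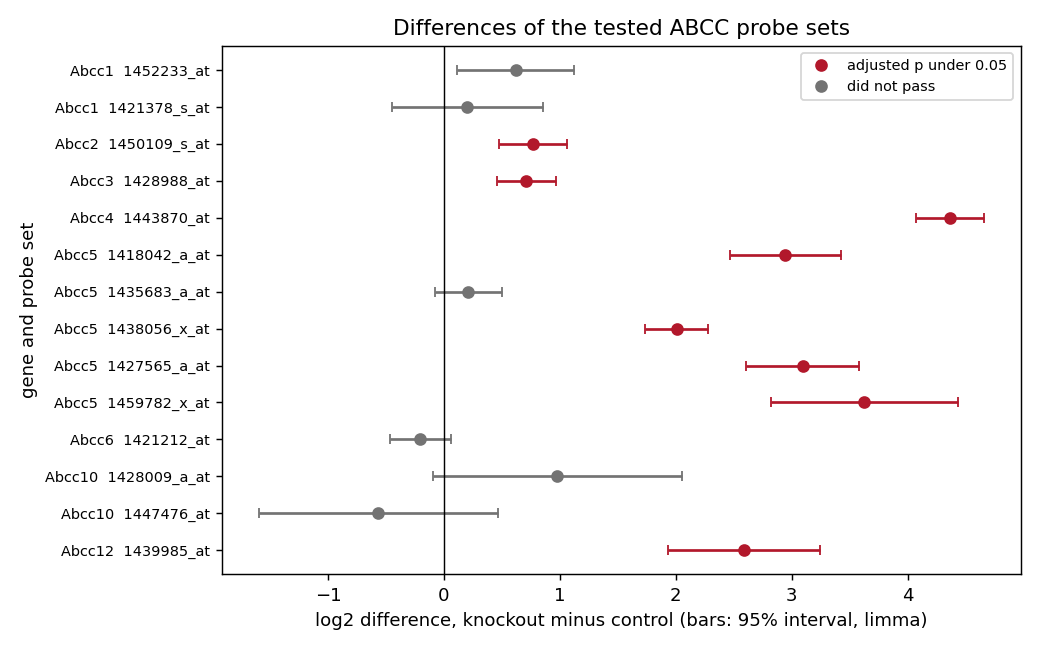
Points are log2 differences, knockout minus control, for the 14 tested ABCC probe sets, with 95% intervals from limma, in red where the adjusted p was under 0.05. The intervals of Abcc2, from 0.48 to 1.06, and Abcc3, from 0.46 to 0.96, cover nearly the same range, while that of Abcc4 starts at 4.07.

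Sinusoidal and canalicular exporters were contrasted within each array, as the log2 ratio of each sinusoidal exporter to Abcc2, which removes any scaling shared by the genes of that array. Relative to Abcc2, Abcc4 was higher in the knockouts by 3.60 and Abcc5, in 1418042_a_at, by 2.17. With the Abcc5 probe set brightest in the controls, 1435683_a_at, the direction was the opposite, at -0.56, again without overlap (exact p = 0.1). Abcc6 lay lower relative to Abcc2, with a difference of -0.97. For these 3 pairs the knockouts did not overlap the controls, and the exact two-sided permutation p was 0.1, the smallest possible with 3 mice against 3, or 0.167 adjusted over the 5 pairs. The Abcc3 ratio differed by -0.06, with knockouts from -0.33 to 0.19 and controls from -0.13 to 0.08 around the control mean (exact p = 0.8, adjusted 0.8). The Abcc1 ratio differed by -0.15 (exact p = 0.8, adjusted 0.8). The sinusoidal exporters thus did not move alike, and the ratio of Abcc3 to the canalicular Abcc2 differed by less than the spread between mice. The sign of the Abcc3 ratio changed without knockout 3, to 0.076, and that of Abcc1 without control 2, to 0.085.

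**Figure D4:**
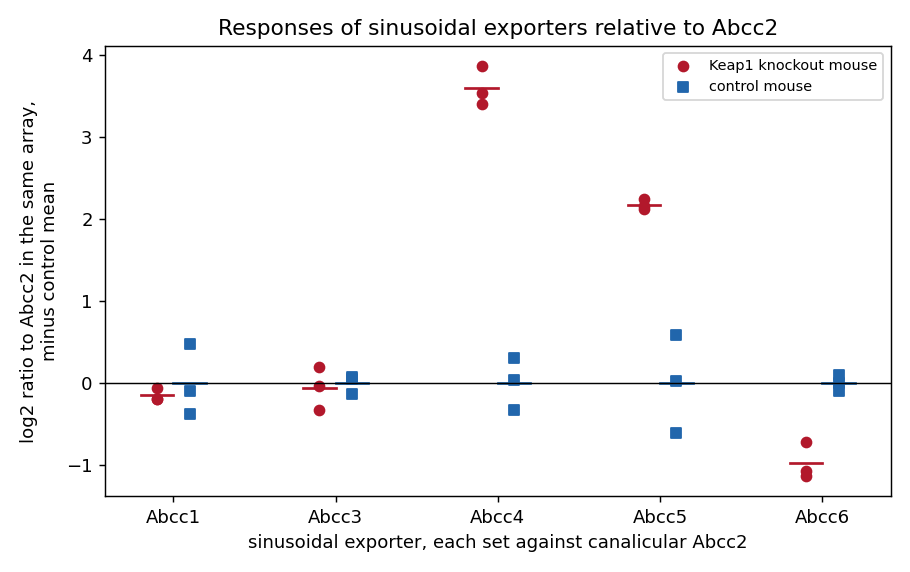
Each point is 1 mouse, with the log2 ratio of a sinusoidal exporter to Abcc2 on the same array, minus the mean of the 3 controls, and bars are group means. Mean differences are 3.60 for Abcc4, 2.17 for Abcc5 in 1418042_a_at and -0.97 for Abcc6, while for Abcc1 and Abcc3 the knockouts spread over both sides of the control mean or overlap the controls.

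Abcc10 and Abcc12 have no settled place at either membrane of the hepatocyte. Abcc12, a short member with no well-established substrate, rose 6.02-fold in 1439985_at, from 47, 111 and 94.2 in the controls to 568, 435 and 715 in the knockouts. No knockout came near the controls, and the log2 difference of 2.59 had a 95% interval from 1.93 to 3.24 (limma adjusted p = 0.00347). It was called in each run without 1 array, at 2.28 to 2.79. Its other probe set was too dim to be tested, at a mean of 44.7, and read 79.2, 17.5 and 69.8 in the knockouts and 61.3, 8.2 and 32 in the controls.

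Abcc10, an exporter of lipophilic drugs and estradiol glucuronide, had 2 probe sets that differed in sign, and neither passed. In the brighter one the knockouts read 231, 170 and 190 and the controls 112, 30.1 and 193, a log2 difference of 0.98 (limma adjusted p = 0.390) that was 0.37 without control 2. In the dimmer one knockout 4 alone was low, at 26.1 against 116 to 133 on the other 5 arrays. The log2 difference of -0.57 (adjusted p = 0.614) was 0.017 without knockout 4.

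The spread between mice differed among the members. In Abcc2, Abcc3, Abcc4 and Abcc6 the log2 range within a group was at most 0.44, and in 1428009_a_at of Abcc10 it reached 2.18 in the controls. Control 2 had the highest control signal of Abcc4, of 1418042_a_at and 1438056_x_at of Abcc5, of 1452233_at of Abcc1 and of 1439985_at of Abcc12, and the lowest of 1428009_a_at of Abcc10. The part of its marker levels in these values was not tested. Without control 2 the log2 differences of Abcc4, of Abcc5 in its brightest probe set and of Abcc12 were 4.48, 3.20 and 2.79, and each was called, while the count of genes called fell to 3.

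The genes nearest to each exporter were taken by the Euclidean distance of their centred log2 values over the 6 arrays. For Abcc4 they were Gpx2 at 0.643, Mt2 at 1.07, Osbpl3 at 1.31 and Slc22a12 at 1.31, with log2 differences from 3.77 to 4.52. For Abcc3 they were Cfap36 at 0.272, Gm19619 at 0.277, Dnajc24 at 0.297 and Zfp787 at 0.299, of which Gm19619 alone passed the test (limma adjusted p = 0.0264). For Abcc2 they were Ercc3 at 0.192, Cyp2c39 at 0.211, Dcaf12 at 0.213 and Gm19619 at 0.234, and all 4 passed. Gm19619 was near both Abcc3 and Abcc2. Choosing genes by distance on the same 6 arrays favours those with a group difference like that of the exporter. Their differences and calls are therefore not a separate result.

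Other genes of the transport route were counted by their brightest tested probe set. Over all 13036 genes the median log2 difference was -0.02, while over the 8 ABCC genes it was 0.88. The latter lies midway between Abcc2 at 0.77 and Abcc10 at 0.98. The Abcc10 value did not pass, was 0.37 without control 2 and was opposed by its other probe set at -0.57, so this median is uncertain. Of the ion channel members and regulators of the same subfamily, the sulfonylurea receptors Abcc8 and Abcc9 differed by 0.05 and -0.25 without passing (limma adjusted p = 0.963 and 0.384), and Cftr was too dim to be tested. Of 10 other canalicular exporters 0 passed, with a median of -0.05. Their largest differences were those of the drug pump Abcb1b at -0.90 (adjusted p = 0.205) and of the sterol transporter subunit Abcg5 at 0.87 (adjusted p = 0.0971). In runs without 1 array at most 1 of these was called higher, without control 1. Among 8 sinusoidal uptake and bidirectional carriers 0 rose and 2 fell, against 0.982% and 0.89% of all genes, with a median of -0.09. The organic anion carrier Slco1a1 had signals of 3556, 1905 and 3219 in the knockouts and 9372, 8620 and 7252 in the controls, and Slc22a7 differed by -1.49. Slco1a1 was called in 6 of the 6 runs without 1 array and Slc22a7 in 2. Without 1 array 1 to 2 of them fell, 1 rose without knockout 3, and with no variance trend 0 fell.

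The next list held enzymes that make the conjugates carried by ABCC exporters, or that supply glutathione or UDP-glucuronate for them. Of 22 measured, 8 rose and 0 fell, against 0.982% and 0.89% of all genes, with a median of 0.56. Of the suppliers, Ugdh, which makes UDP-glucuronate, rose by 1.00 on the log2 scale. The glutathione synthesis enzymes Gclc and Gss rose by 1.17 and 0.63. Of the conjugating enzymes, the glucuronosyltransferase Ugt2b35 rose by 0.62. The glutathione transferases Gsta2, Gstm3, Gstm2 and Gstm4 rose by 2.39, 2.25, 1.79 and 1.65. Without knockout 3, 5 rose, with no variance trend 3 did, and without knockout 4, 1 fell. The list held 25 enzymes, and Ugt1a1, Ugt1a6a and Ugt1a9 were left out because no probe set had their symbol alone. Like the other lists, it was chosen with earlier results of these data known. Of 10 genes that anchor or carry canalicular proteins 0 passed, with a median of -0.12. The largest differences there were those of ezrin, Ezr, at -0.71 (limma adjusted p = 0.0873), and moesin, Msn, at 0.35 (adjusted p = 0.365), while scaling on the hybridisation controls called 1 lower.

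**Figure D5:**
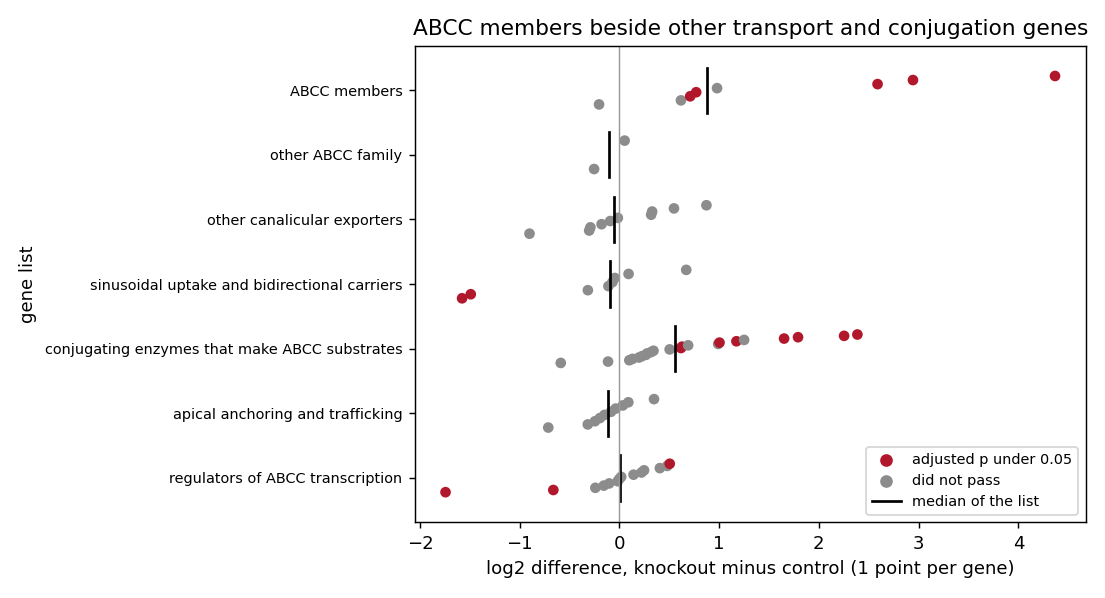
Each point is 1 gene, placed by the log2 difference, knockout minus control, of its brightest tested probe set, in red where the adjusted p was under 0.05, and black bars are list medians. The ABCC members have a median of 0.88, and the enzymes that make conjugates or supply glutathione or UDP-glucuronate one of 0.56. The other canalicular exporters, the uptake carriers and the anchoring genes have medians of -0.05, -0.09 and -0.12.

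Of 14 measured regulators of ABCC genes 1 rose and 2 fell, against 0.982% and 0.89% of all genes, with a median of 0.01. The small Maf gene Mafg rose by 0.50, and Keap1 and Nfe2l2 fell, by 1.74 and 0.66 on the log2 scale. Keap1 is the gene knocked out by design, so its fall checks the labels and is not a finding about regulators. Keap1 was called in 6 of the 6 runs without 1 array, Nfe2l2 in 1 and Mafg in 0. In these runs 1 to 2 of the list fell, and with no variance trend 0 of the list passed. Of 9 reference targets of NRF2, 6 rose and 0 fell, against 0.982% and 0.89% of all genes, with a median of 2.12. Those that rose included the carbonyl reductase Cbr3 at 6.73, the glutathione peroxidase Gpx2, the quinone reductase Nqo1 at 2.31 and the sulfiredoxin Srxn1 at 2.12. The thioredoxin reductase Txnrd1, at 1.25, and Gclc rose as well. Gclc and Gclm are also counted in the enzyme list above. Markers of hepatocytes, macrophages, other leukocytes, endothelium, stellate cells and the erythroid line had 0 members past the threshold, with medians of 0.16, 0.16, 0.46, -0.05, -0.23 and 0.40. The erythroid median is that of 2 genes of opposite sign, Alas2 at -0.72 and Slc4a1 at 1.53. The macrophage receptor Marco read 387 to 770 in the knockouts and 98.6 to 298 in the controls, and the endothelial receptor Lyve1 read 705 to 1394 and 238 to 582. Neither overlapped, and neither passed (limma adjusted p = 0.120 and 0.118). Of the 8 macrophage genes 5 had a higher log2 mean in the knockouts, and of the 8 endothelial genes 2. Endothelial Fcgr2b and stellate Reln were lower without overlap or a call, with log2 differences of -0.33 and -0.31. Alb, Ttr, Apoa1, Cps1 and Cd79a were higher without overlap or a call. Every knockout lay above every control in 9.1% of all tested probe sets, and below in 11.4%. The summed signal of the 7 hepatocyte markers ranged from 192337 to 214036 in the knockouts and from 169723 to 196608 in the controls. The part of cell composition in the ABCC differences was not tested.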

How the data were processed

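Liver RNA of 6 mice was measured on single-colour Affymetrix mouse expression arrays, 1 mouse per array, 3 per group as the labels give them. The authors deposited linear intensity values, 1 per probe set and array. Biotin-labelled cRNA was made from an oligo(dT) primer, per the labels' protocols. Software for summarising the probes: not given in the sources used here. Every array had a mean of 500.0 once 2% of its values were trimmed at either end, so a change in total RNA per cell would not be seen.

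From these values log2(signal + 16) was computed. Control probe sets (64) were left out, and 27022 of 45037 probe sets, with a mean signal at or above the 40th percentile, were tested with limma 3.58.1 (R 4.3.3), using a variance trend in eBayes. P-values were two-sided, adjusted by Benjamini-Hochberg over every probe set tested, and called under 0.05. The words rose and fell are kept for calls. Genes were named from probe sets with 1 symbol in the platform annotation, and each gene was counted by its brightest tested probe set. Ratios between probe sets were compared with exact permutation tests over the 6 arrays. The fit was tested on simulated data. The number of arrays limits the precision.

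All ABCC probe sets are described. From the other gene lists, the genes past the threshold were named, or, in lists with no call, the 2 that differed most. Marker lists are given by counts and medians, and the markers named were chosen after their values were seen. The members and lists were chosen with earlier results of these data known. The alternatives were other filters, offsets of 1 and 64, quantile, cyclic loess and median normalization, scaling on the hybridisation controls, no variance trend, 1 value per gene and leaving out each array.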

Additional observations from a re-analysis of the deposited data

How the results depend on the processing

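Over the alternatives, the ABCC probe sets called higher numbered 6 to 8, as they did in the runs without 1 array, and 0 were called lower in any of them. The genes called higher fell from 5 to 3 after median centring, after hybridisation control scaling and with no variance trend, and ranged from 3 to 5 without 1 array. In each case with 3, the calls lost were those of Abcc2 and Abcc3. The brightest Keap1 probe set was not called without the variance trend (log2 difference -1.74, limma adjusted p = 0.0586), and was called without any 1 array, at -2.01 to -1.50. Among tested probe sets and ratios, differences that changed sign were those of Abcc3 relative to Abcc2 without knockout 3 (0.076, range -0.19 to 0.076 without 1 array), of Abcc1 relative to Abcc2 without control 2 (0.085, range -0.34 to 0.085), of 1447476_at of Abcc10 without knockout 4 (0.017, range -0.89 to 0.017) and of 1421378_s_at of Abcc1 without control 1 (-0.061, range -0.061 to 0.44), and none of these was called. Abcc5 relative to Abcc2 turned to -0.56 with the probe set brightest in the controls, added after the data were seen. Of the dim Abcc5 probe sets, 1418043_at and 1447384_at also changed sign in some settings, by less than the spread between mice. A filter on the mean of log2 values, added after the data were seen, and a filter at the 60th percentile left 1459782_x_at of Abcc5 untested. Scaling on the hybridisation controls moved the median of all genes to -0.18, and the share of higher among all calls was 53% in the main setting, 24.8% under that scaling and 67.7% after median centring. No paired analysis was made because the labels name no pairs of mice across the groups. Probe sets with signals near the offset have uncertain sizes.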
